A study of Mus musculus with 11 samples.

Results

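Retinoic acid signalling was followed through 7 genes in male germ cells: the nuclear receptors Rara, Rarg, Rxra and Rxrb, the binding protein gene Crabp1, and the synthesis enzymes Aldh1a2 and Rdh10. They were chosen by symbol and are 7 of the 20265 endogenous genes in the table of unique molecular identifiers (UMIs, random tags that mark original RNA molecules). The cells came from the testes of 3 adult mice that carry a Dazl-GFP reporter, in which green fluorescent protein marks cells expressing the germ cell gene Dazl. Live GFP-positive cells were sorted one per well, and SORT-Seq counted their polyadenylated RNA from its 3' end. All mice had the same genotype label and no treatment, so the comparison is between stages of development within each mouse, and the mouse is the replicate (n = 3). Mouse 1 was processed with the CEL-Seq1 primers and mice 2 and 3 with CEL-Seq2, so mouse and protocol cannot be told apart. Mouse 3 gave a library sorted by a gate alone and another with index sorting, and the other libraries were index-sorted.

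Retinoic acid is made from vitamin A by successive oxidations. RDH10 turns retinol into retinal, and ALDH1A2 turns retinal into retinoic acid. Retinoic acid binds the receptors RARA and RARG, which sit on DNA as pairs with an RXR receptor such as RXRA or RXRB and switch on nearby genes. CRABP1 holds retinoic acid in the cytosol and is linked to its breakdown. In the testis retinoic acid drives spermatogonia, the dividing cells before meiosis, to differentiate, and later induces Stra8 and entry into meiosis.

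Of 1920 wells, 1448 had 1000 UMIs or more and entered as cells, and the median depth of mice 1, 2 and 3 was 16275, 9830 and 14132.5 UMIs. Clustering placed 1212 cells into 12 stages, ordered by pseudotime, and no gene of the retinoic acid pathway was used to make or order them. Stage 1 was undifferentiated spermatogonia-like (72 cells), stages 2 and 3 differentiating spermatogonia-like, and stages 4 and 5 preleptotene-like, the cells about to enter meiosis. Stages 6 to 8 were leptotene and zygotene-like, stages 9 and 10 stayed unnamed, and stages 11 and 12 were pachytene-like, from successive phases of the first meiotic prophase. The names came from lists of marker genes, so sums of those markers describe the stages and do not test the names. Undifferentiated spermatogonia markers summed to a mean of 641 CPM at stage 1 and 428 CPM at stage 10. Id4, on that list, was among the 10 leading genes of stage 10, where pachytene markers summed to 8150 CPM. Differentiating spermatogonia markers had 1219, 1309 and 869 CPM at stages 1, 2 and 3. Preleptotene markers had 2153, 2359 and 5555 CPM at stages 2, 4 and 5. Leptotene and zygotene markers summed to 10435 CPM at stage 8 and pachytene markers to 9411 CPM at stage 12. RNA per cell, as UMIs per UMI of the added ERCC spike-in RNA, was lowest at stage 6 (log2 ratio to stage 1 of -1.84 ± 0.37, SD) and highest at stage 12 (1.70 ± 0.36). Levels are therefore given as UMIs per 1000000 UMIs of a sum of cells (CPM), and per 1000 ERCC UMIs where the choice of scale matters.

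All 7 genes passed the filter on low counts. Between stage 12 and stage 1, 4 of them fell (Rara, Rarg, Rxra and Crabp1) and Aldh1a2 rose, while Rxrb and Rdh10 were not called (edgeR quasi-likelihood test on sums per mouse, Benjamini-Hochberg adjusted p under 0.05 over 10796 genes). Over all genes tested, 39.4% were called lower and 37.1% higher in that comparison, so the count of members called is near the background of 76.5%. Across all stages together the level of each of the 7 varied, beside 96.2% of all genes. What separates the members is when and how far each changed.

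**Figure D1:**
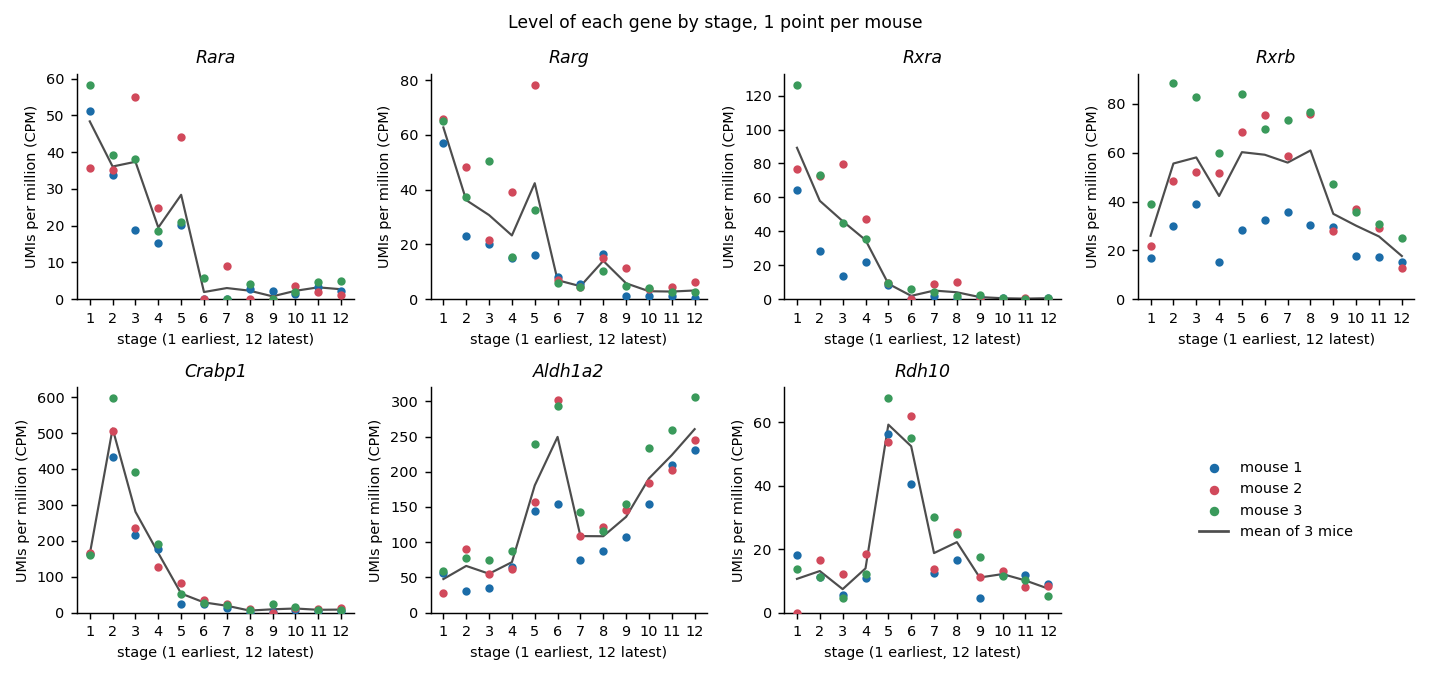
Level of the 7 genes (CPM, linear axes that start at 0) at stages 1 to 12, with 1 point per mouse and a line through the mean of 3 mice. Rara, Rarg and Rxra are highest at stage 1, Crabp1 at stage 2, Rdh10 at stages 5 and 6, and Aldh1a2 at stages 6 and 12.

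Of the receptors, Rara, the retinoic acid receptor with a known role in both germ cells and Sertoli cells, was measured at 51.1, 35.7 and 58.4 CPM in mice 1, 2 and 3 at stage 1. At stage 12 it was at 2.21, 1.06 and 4.82 CPM, and no mouse at stage 12 overlapped any mouse at stage 1. The log2 fold change was -3.60 (SE 0.40, edgeR adjusted p = 1.86e-10). The means of stages 1 to 5 were, in order, 48.4 ± 11.6 (SD, n = 3), 36.1 ± 2.82, 37.4 ± 18.1, 19.5 ± 4.88 and 28.4 ± 13.6 CPM. From stage 6 on every mean lay between 0.758 CPM (stage 9) and 3.21 CPM (stage 11). Most of the difference lay between stages 5 and 6, where the mice went from 20.1, 44.1 and 21.0 CPM to 0, 0 and 5.80 CPM. That step was the only one called of the 11 for Rara (log2 fold change -3.16, SE 0.89, adjusted p = 0.0180). It rests on 23 UMIs at stage 5 and 2 at stage 6, a pooled ratio of 0.104 (exact 95% interval 0.0119 to 0.421, counting error only), and the zeros allow up to 12.1 CPM in mouse 1 and 20.6 CPM in mouse 2. The call was lost without mouse 1 (-2.76, adjusted p = 0.0604), without mouse 2 (-2.51, 0.127) and without mouse 3 (-7.61, 0.0542).

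Rarg, the retinoic acid receptor of spermatogonia that are competent to differentiate, stood at 57.2, 65.9 and 65.2 CPM at stage 1 and at 0.490, 6.37 and 2.65 CPM at stage 12. Its log2 fold change was -4.41 (SE 0.42, edgeR adjusted p = 4.48e-12), with no overlap between the groups. A lower level was reached at stage 2 (36.2 ± 12.6 CPM), where the step was called at -0.87 (SE 0.33, adjusted p = 0.0445). That call was lost in 9 of 15 alternatives, among them leaving out any mouse (adjusted p = 0.142, 0.0683 and 0.153 without mice 1, 2 and 3). Stages 3, 4 and 5 had means of 30.7 ± 17.1, 23.3 ± 13.8 and 42.4 ± 32.3 CPM, and at stage 5 mouse 2 was high at 78.4 CPM against 16.1 and 32.7 CPM in mice 1 and 3. As for Rara, the largest step of Rarg was from stage 5 to stage 6, where the mice had 8.09, 6.87 and 5.80 CPM (log2 fold change -2.35, SE 0.70, adjusted p = 0.0260). It was not called without mouse 2 (-1.82, adjusted p = 0.232), without mouse 3 (-2.30, 0.196) or with no mouse block (-2.45, 0.0572). At stage 8 all 3 mice were above their own stage 7 value, at 16.5, 15.2 and 10.4 CPM, from 14 UMIs in all, and this step was not called.

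Rxra, the partner receptor that pairs with RARs, had the largest fall of the 7. It was at 64.5, 76.9 and 126 CPM at stage 1 and at 0.736, 0 and 0.964 CPM at stage 12, where 7 UMIs remained in 89 cells and the 0 allows up to 3.18 CPM. The log2 fold change was -6.30 (SE 0.42, edgeR adjusted p = 1.91e-16). Its largest called step was the one to stage 5. Between stages 4 and 5 it went from 21.7, 47.5 and 35.4 CPM to 8.05, 9.80 and 9.33 CPM, in each mouse lower and with no overlap (log2 fold change -1.92, SE 0.55, adjusted p = 0.00653). At the same step neither Rara nor Rarg was called, and whether the 3 genes differ at this step was not tested. The Rxra call was lost without mouse 3 (-1.89, adjusted p = 0.114), with no mouse block (-1.89, 0.07) and with read counts (-1.08, 0.449). Before that, the means of stages 1 to 4 were 89.3 ± 32.8, 58.0 ± 25.6, 46.0 ± 33.1 and 34.9 ± 12.9 CPM. The step to stage 2 was called at -0.73 (SE 0.27, adjusted p = 0.0418), a call lost in 8 of 15 alternatives, among them leaving out mouse 1 (adjusted p = 0.135) or mouse 3 (0.270).

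Rxrb, the other RXR gene, was the only receptor whose values at stages 1 and 12 overlapped across mice, with 17.0, 21.97 and 38.9 CPM at stage 1 and 15.2, 12.7 and 25.1 CPM at stage 12. The log2 fold change of -0.13 (SE 0.25) was not called (edgeR adjusted p = 0.674), though with stages made from even-numbered autosomes it was called lower (-0.93, 0.0445). It rose at stage 2 to 30.0, 48.2 and 88.5 CPM, higher in each mouse than at stage 1 (log2 fold change 1.06, SE 0.24, adjusted p = 0.000711). That call was lost without mouse 3 (0.96, 0.0999) and with no mouse block (1.08, 0.147). From stage 2 to stage 8 the means stayed between 42.3 and 60.9 CPM, and from stage 9 they declined from 35.0 ± 10.6 to 17.7 ± 6.52 CPM with no single step called. Mouse 1 was the lowest of the 3 mice at stages 1 to 8. Per 1000 ERCC UMIs the mean of Rxrb was 1.69 ± 0.75 at stage 1 and 4.09 ± 2.47 at stage 12, and under ERCC scaling it was called higher (1.31, adjusted p = 0.000163), as were 63.5% of all genes. The direction for Rxrb therefore depends on the scale, while Rara, Rarg and Rxra were called lower on both.

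The levels were ordered from high to low within each gene, and neighbours in that order were taken as apart where their means differed by more than the larger SD. For Rara 1 of 11 neighbouring pairs was apart, stage 4 (19.5 CPM) from stage 11 (3.21 CPM), which splits stages 1 to 5 from stages 6 to 12. For Rarg it was stage 8 from stage 6, and for Rxra stage 4 from stage 5 and stage 5 from stage 7. For Rxrb it was only stage 11 from stage 12, by 8.02 CPM against an SD of 7.49. Only neighbours in the order were compared in this way. The highest stage was also not the same in every mouse: Rara and Rxra were highest at stage 3 and Rarg at stage 5 in mouse 2, and all 3 at stage 1 in mice 1 and 3.

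Promoter windows of the falling receptors were read from the RefSeq table for GRCm38.p6, which covers 250 bases before and 50 bases after a transcript's start. The table held 12 windows for 6 of the genes and none for Rdh10. They are shown because 3 receptors fell between stages 1 and 12, though their largest called steps were not all at the same stage. They were searched on both strands for hexamers that receptors of this class bind. These are AGGTCA and the variant that begins with GGG (GGGTCA). Also searched were the forms with a central pair of T (GGTTCA or, with a leading A, AGTTCA). Of the 12 windows 4 held a hexamer, against 43.7% of all 32851 windows of that length, and no window held 2 hexamers in the same orientation spaced by 1, 2 or 5 bases, against 0.59% of all windows. Capitals mark the hexamers on either strand, and each sequence runs 5' to 3' on the strand of the gene. The windows are Rara at chr11:98939461-98939760 (plus strand), Rarg at chr15:102257473-102257772 (minus strand) and Rxra at chr2:27709042-27709341 (plus strand), each from the start of one of several annotated transcripts. For each of these genes the window shown is the one with the most hexamers, so it does not stand for the gene's other windows.
Rara: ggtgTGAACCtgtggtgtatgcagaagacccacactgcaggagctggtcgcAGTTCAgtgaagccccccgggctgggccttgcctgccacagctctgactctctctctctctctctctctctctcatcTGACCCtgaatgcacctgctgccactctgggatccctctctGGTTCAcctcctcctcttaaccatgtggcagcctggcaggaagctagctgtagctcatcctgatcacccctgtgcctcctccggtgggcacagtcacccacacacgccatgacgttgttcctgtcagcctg
Rarg: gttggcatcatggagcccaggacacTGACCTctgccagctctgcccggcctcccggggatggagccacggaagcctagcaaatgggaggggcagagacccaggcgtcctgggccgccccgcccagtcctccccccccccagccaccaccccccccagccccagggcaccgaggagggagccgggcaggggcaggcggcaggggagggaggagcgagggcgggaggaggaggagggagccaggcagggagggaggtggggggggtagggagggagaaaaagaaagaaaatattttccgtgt
Rxra: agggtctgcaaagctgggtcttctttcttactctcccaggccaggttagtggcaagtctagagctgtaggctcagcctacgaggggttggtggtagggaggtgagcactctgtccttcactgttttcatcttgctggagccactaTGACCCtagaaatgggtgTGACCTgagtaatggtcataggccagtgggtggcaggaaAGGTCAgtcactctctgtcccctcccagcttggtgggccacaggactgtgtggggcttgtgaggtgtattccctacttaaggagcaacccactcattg
The Rara window held 4 hexamers, the Rarg window 1 and the Rxra window 3. The other Rxra window and another Rarg window held none, and of the other 3 Rara windows 1 did. A match of letters does not show a bound site, and binding was not measured here. The genes themselves lie at chr11:98927818-98974942 (Rara, plus strand), chr15:102234938-102257517 (Rarg, minus), chr2:27676440-27762957 (Rxra, plus) and chr17:34031812-34038399 (Rxrb, plus) in GRCm38. None of the 7 genes shares exon bases with another gene.

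**Figure D2:**
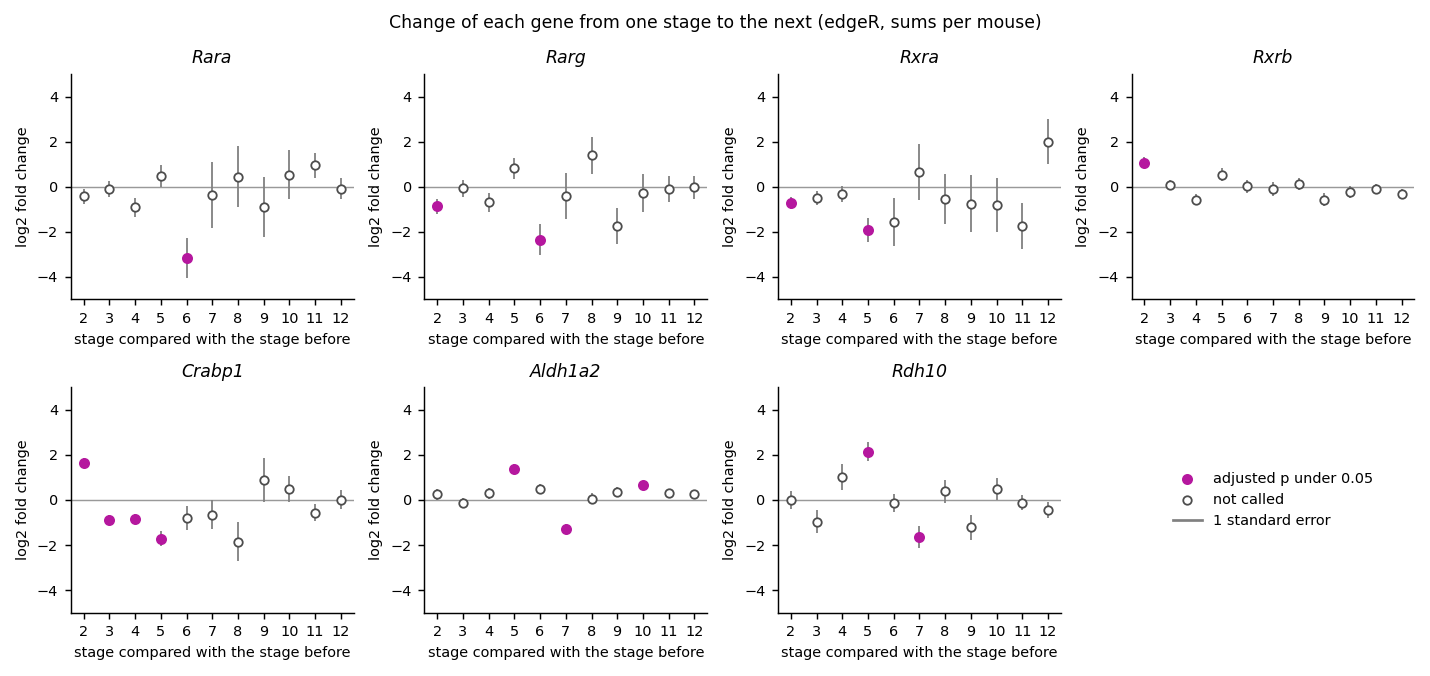
Log2 fold change of each gene from one stage to the next (y axis, log2 scale; x axis, the later stage), with 1 standard error as bars, from edgeR on sums of UMIs per mouse. Filled points are called at an adjusted p under 0.05: 15 of 77, of which Crabp1 has 4 and Rxrb 1.

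Crabp1, whose product binds retinoic acid in the cytosol, rose and then fell among the stages before meiosis. At stage 1 the mice were almost equal, at 163, 165 and 160 CPM. At stage 2, the differentiating spermatogonia-like cells, they were at 434, 506 and 597.3 CPM, a log2 fold change of 1.66 (SE 0.21, edgeR adjusted p = 1.27e-07). The peak was at stage 2 in 3 of 3 mice, and 5 of 11 neighbours in the order of levels were apart, the most of any member. The level then came down in called steps: -0.88 to stage 3 (SE 0.20, adjusted p = 0.00251), -0.85 to stage 4 (SE 0.23, 0.0258) and -1.73 to stage 5 (SE 0.33, 0.000110). For stages 3 to 6 the means were 281 ± 95.5, 166 ± 33.1, 52.9 ± 29.6 and 28.2 ± 5.38 CPM, with at most 18.9 CPM from stage 7. At stage 12 the mice had 4.66, 12.7 and 7.23 CPM, which is -4.24 (SE 0.29, adjusted p = 5.45e-16) against stage 1. Per 1000 ERCC UMIs the mean of Crabp1 was 0.10 ± 0.11 at stage 8 and 1.66 ± 0.53 at stage 12. Under ERCC scaling its step to stage 10 was called higher (1.88, adjusted p = 0.00122), as were 8577 of 10796 genes. The steps to stage 2 and to stage 5 held in 15 of 15 alternatives. The step to stage 3 held in 12 of 15. It was lost with DESeq2 (-0.87, adjusted p = 0.108), read counts (-1.07, 0.195) and no mouse block (-0.88, 0.42). The step to stage 4 held in 9 of 15. It was lost with DESeq2 (-0.84, adjusted p = 0.236), read counts (-0.73, 0.566) and no mouse block (-0.82, 0.749). It was also lost without mouse 2 (-0.82, adjusted p = 0.163) and without mouse 3 (-0.66, 0.332). Leaving out the index-sorted library of mouse 3 lost it too (-0.77, 0.0999).

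At the step to stage 2, 27.3% of all genes were called, while at the step to stage 4 only 3.96% of genes were called in either direction. At that step to stage 2, 4 of 7 members were called at the step to stage 2, in opposite directions: Crabp1 and Rxrb rose while Rarg and Rxra fell. Likewise 4 were called at the step to stage 5, where 29.0% of genes were, with Aldh1a2 and Rdh10 higher and Crabp1 and Rxra lower. At the other steps with a called member, to stages 3, 6, 7 and 10, the share of all genes called was 14.2%, 10.6%, 19.1% and 30.0%. No member was called at the steps to stages 8, 9, 11 and 12, where 5.56%, 17.5%, 2.22% and 6.86% of all genes were. In all, 15 of 77 steps were called, 5 up and 10 down, with the same sign in each of 15 alternatives. Without the index-sorted library of mouse 3 the steps of Rarg to stages 2 (adjusted p = 0.057) and 6 (0.053), Rxra to stage 2 (0.0767) and Crabp1 to stage 4 (0.0999) were not called. Without the gate-sorted library those of Rarg (0.0927) and Rxra (0.0921) to stage 2 and Rdh10 to stage 7 (0.0594) were not.

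After thinning each cell to 3000 UMIs, to compare cells of unequal depth, 33.8% of stage 1 cells, 76.5% of stage 2 cells and 54.2% of stage 3 cells had at least 1 Crabp1 UMI. By stages 4, 5 and 12 the share was 38.0%, 10.5% and 2.27%. Unthinned shares for stages 1, 2 and 12 were 81.9%, 99.2% and 43.8%, and at stage 12 a cell had a median of 88154 UMIs (mean over mice). The highest count in any cell was 70 UMIs, at stage 2. The Crabp1 gene lies at chr9:54764748-54773110 (plus strand), and its window (chr9:54764498-54764797) held none of the hexamers.
Crabp1: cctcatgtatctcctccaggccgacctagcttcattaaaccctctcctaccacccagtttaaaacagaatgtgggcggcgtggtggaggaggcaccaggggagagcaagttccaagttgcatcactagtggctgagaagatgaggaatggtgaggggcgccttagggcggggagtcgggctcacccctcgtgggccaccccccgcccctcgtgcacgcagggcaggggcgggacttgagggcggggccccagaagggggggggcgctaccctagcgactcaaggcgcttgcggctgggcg

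Aldh1a2, the enzyme that makes retinoic acid, known from pachytene spermatocytes, was the member that rose. It stood at 56.0, 27.5 and 59.3 CPM at stage 1 and at 231, 245 and 306 CPM at stage 12, with no overlap (log2 fold change 2.68, SE 0.20, edgeR adjusted p = 3.66e-15). The rise was not continuous. The level was 71.6 ± 14.0 CPM at stage 4, and in the later preleptotene-like stage (stage 5) the mice reached 145, 157 and 240 CPM, a log2 fold change of 1.37 (SE 0.23, adjusted p = 1.66e-05). It was at 154, 302 and 293 CPM at stage 6, fell at stage 7 to 74.9, 109 and 142 CPM (-1.28, SE 0.23, adjusted p = 7.96e-05), and each mouse was lower at stage 7 than at stage 6. The third called step was to stage 10, with 0.67 (SE 0.19, adjusted p = 0.00586), from 136 ± 24.6 to 191 ± 40.2 CPM. That call was lost without mouse 3 (0.55, adjusted p = 0.145) and with no mouse block (0.68, 0.137), whereas the steps to stages 5 and 7 held in 15 of 15 alternatives. Only 1 of 11 neighbours in the order of levels was apart, stage 8 (108 CPM) from stage 4 (71.6 CPM), which divides stages 1 to 4 from stages 5 to 12. Stages 6 and 12, the high points, did not differ beyond their spread, and mouse 2 was highest at stage 6, mice 1 and 3 at stage 12.

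In thinned cells the share with an Aldh1a2 UMI was 8.45% at stage 1, and for stages 4, 5, 6, 8 and 12 it came to 23.1%, 42.1%, 43.2%, 20.4% and 51.1%. Without thinning it was 62.5% at stage 1 and 98.9% at stage 12, and the highest count in a cell was 78 UMIs. On the spike-in scale Aldh1a2 had 3.96 ± 3.83 UMIs per 1000 ERCC UMIs at stage 1 and much the same in stages 5 (4.53 ± 2.09) and 6 (4.42 ± 1.05), then 28.3 ± 16.0 in stage 10 and 60.9 ± 36.1 in stage 12. On that scale the mean at stage 6 is therefore not above stage 1 beyond the spread, which includes differences between mice. Mouse 1 was lower at stage 6 than at stage 1 (5.635 against 8.37). Mice 2 and 3 were higher (3.90 against 1.485 and 3.73 against 2.01). Under ERCC scaling the step from stage 4 to stage 5 was called (0.99, edgeR adjusted p = 0.0042). Stages 10 to 12 stand above all others. The gene lies at chr9:71215789-71296243 (plus strand), and its window (chr9:71215539-71215838) held none of the hexamers.
Aldh1a2: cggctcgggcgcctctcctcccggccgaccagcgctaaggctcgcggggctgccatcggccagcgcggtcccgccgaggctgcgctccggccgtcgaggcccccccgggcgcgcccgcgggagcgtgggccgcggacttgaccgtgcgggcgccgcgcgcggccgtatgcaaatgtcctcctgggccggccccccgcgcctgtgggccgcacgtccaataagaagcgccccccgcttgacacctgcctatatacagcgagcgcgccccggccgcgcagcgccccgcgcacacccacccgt

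**Figure D3:**
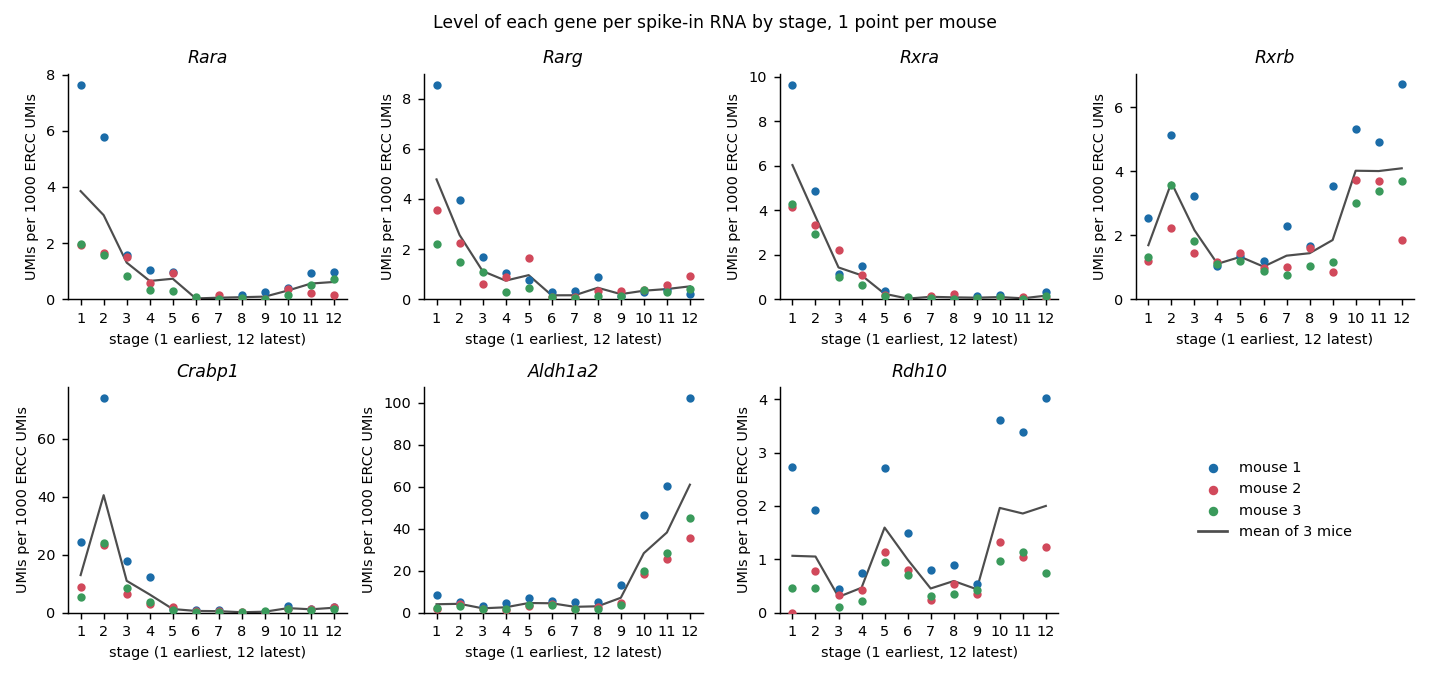
The same 7 genes as UMIs per 1000 UMIs of the ERCC spike-in RNA (linear axes that start at 0), with 1 point per mouse and a line through the mean. Aldh1a2 is highest at stage 12 (mean 60.9) and Crabp1 at stage 2 (40.5), while Rara, Rarg and Rxra remain highest at stage 1.

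Rdh10, which makes retinal from retinol, also rose at stage 5. It had 18.3, 0 (which allows up to 8.24) and 13.6 CPM at stage 1 and 10.9, 18.6 and 12.3 CPM at stage 4. At stage 5 the mice were at 56.3, 53.9 and 67.6 CPM, all above every mouse of stages 1 to 4 (log2 fold change 2.14, SE 0.43, edgeR adjusted p = 0.000173). The level was 40.4, 61.8 and 55.1 CPM at stage 6, where the step was not called, and 12.5, 13.6 and 30.2 CPM at stage 7 (-1.64, SE 0.48, adjusted p = 0.0119). At stage 12 it had returned to 9.07, 8.49 and 5.06 CPM, and the difference from stage 1 was not called (-0.48, SE 0.41, adjusted p = 0.290). The rise to stage 5 held in 15 of 15 alternatives. The fall to stage 7 held in 9 of 15. It was lost without mouse 1 (-1.46, adjusted p = 0.107), mouse 2 (-1.41, 0.0825) or mouse 3 (-1.96, 0.0534). ERCC scaling (-1.23, 0.0664) and read counts (-1.59, 0.105) lost it too. With ERCC scaling, Rdh10 was called higher at stage 12 than at stage 1 (0.97, adjusted p = 0.0337), the opposite sign. So were 63.5% of all genes. On that scale its means in stages 1, 5 and 12 were 1.06 ± 1.46, 1.59 ± 0.96 and 1.999 ± 1.77 UMIs per 1000 ERCC UMIs.

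Counts of Rdh10 were low, with 54 UMIs over 78 cells at stage 5, and 13.2% of thinned cells had a UMI at stage 5 and 16.0% at stage 6, against 0.84% to 2.78% at stages 1 to 4. In the order of levels stages 5 and 6 did not differ beyond their spread, stage 6 was apart from the next, stage 8, by 30.2 CPM, and stage 11 from stage 12 by 2.58 CPM. The gene lies at chr1:16105774-16133734 on the plus strand.

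Sertoli cells, the somatic nurse cells of the testis, also make retinoic acid. The sort was for live Dazl-GFP-positive cells, and how well it left Sertoli cells out was not measured here. The summed Sertoli markers were highest at stage 5 (mean 481 CPM), with 407 and 429 CPM at stages 7 and 8. All 8 of 8 Sertoli markers were detected at stage 5, at a summed 235 to 669 CPM over the mice. At stage 4 the sum was 150 to 254 CPM (8 of 8 detected). At stage 6 the sum was 247 to 310 CPM (7 of 8, Dhh at 0). Ctsl made up 239 CPM of the stage 5 mean, was at 247 CPM at stage 6 and was highest at stage 8 (392 CPM). Aard and Cldn11 had 92.9 and 65.3 CPM at stage 5 and 11.2 and 3.66 CPM at stage 6. Like Aard and Cldn11, Sox9 and Amhr2 were highest at stage 5 (15.8 and 41.2 CPM). Wt1 and Rhox5 were highest at stage 1, at 25.0 and 11.4 CPM, against 15.55 and 8.69 CPM at stage 5. Clu and Sparc were among the 10 leading genes of stage 5, and Aldh1a1, the synthesis enzyme known from Sertoli cells, had its highest level there (11.4 ± 10.3 CPM, 11 UMIs). In stage 5, 6 of 78 cells had at least 0.2% of their UMIs from somatic markers. Without such cells and those with spermatid markers, 71 cells remained at stage 5, Rdh10 was at 60.6 ± 13.05 CPM and Aldh1a2 at 185 ± 62.4 CPM. The step to stage 5 was then 2.18 for Rdh10 (edgeR adjusted p = 0.000178) and 1.40 for Aldh1a2 (1.08e-05). In those 71 cells 7 of 8 Sertoli markers were still detected (Dhh at 0), at a summed 129 to 390 CPM, and the part of remaining Sertoli RNA in the rises was not tested.

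**Figure D4:**
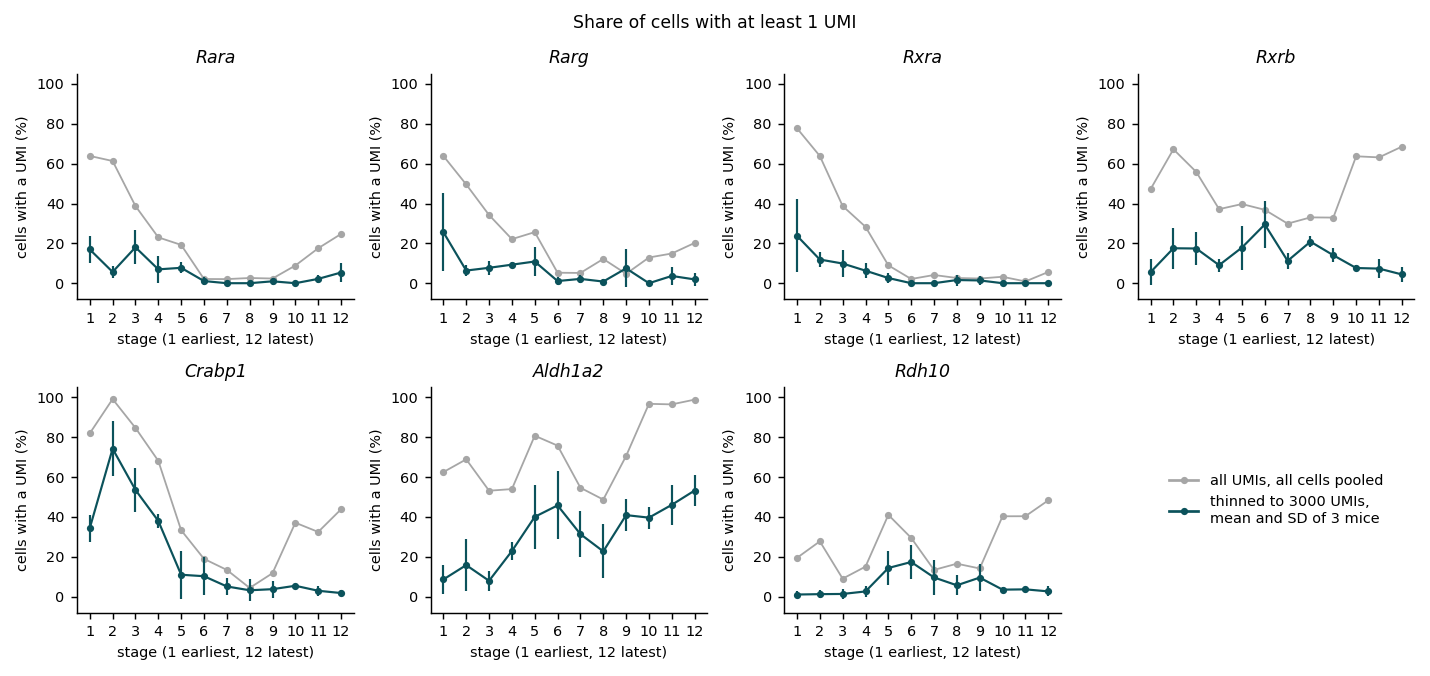
Share of cells with at least 1 UMI of each gene (%) by stage: grey, all UMIs over the pooled cells; dark, each cell thinned to 3000 UMIs, as the mean and SD of 3 mice. The grey line of every gene but Rxra is higher at stages 10 to 12, where cells hold the most UMIs, than at stage 8. The thinned share of Crabp1 is at most 5.44% there.

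For Rxra the thinned shares of stages 1, 2 and 5 were 25.4%, 12.6% and 2.63%, and at stage 10, without thinning, 4 of 124 cells (3.23%) had a UMI. Rara was seen after thinning in 18.3% of stage 1 cells, 5.88% (7 of 119) at stage 2 and 17.8% (19 of 107) at stage 3. The thinning was a random draw and was not repeated. Without thinning the order was the reverse, with 61.3% at stage 2, where cells were deeper, and 38.7% at stage 3. The CPM of Rara at stages 2 and 3 was nearly the same (36.1 and 37.4). Rarg was seen after thinning in 22.5% of stage 1 cells and 10.5% of stage 5 cells. Rxrb, at 7.04% of stage 1 cells, was highest at 28.4% of stage 6 cells and was 5.68% at stage 12.

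The genes most like each member were found as the 5 highest Pearson correlations of log2(CPM + 5), centred per mouse, over the 36 sums and among the 10795 other genes tested. These are descriptions: sums of a mouse share libraries, and all sums share the same 12 stages. Closest to Rara were Alkbh2 (r = 0.940), Sox3 (0.939), Mapre2, Acy1 and Galnt6, and closest to Rarg were Ldb1 (0.916), Abr, Ssbp3, Ptprf and Rassf3. Closest to Rxra were Irf2bpl (0.961), Gsr, Zc3h7b, Pgam1 and Rps2, and among those closest to Crabp1 were Csnk1e (0.955), Psat1, Rpsa and Gsr. Gsr, which encodes glutathione reductase, stood in both of these lists. Rxrb was most like Rnf11 (0.845), Ccne1, Pcsk1n, Zxdc and Uri1, at lower values than the other receptors reached. Aldh1a2 was most like Stt3b (0.929), Rims2, Larp1b, Dnpep and Mtmr6, and Rdh10 most like Pparg (0.860), Pigp, Pomt2, Sirt7 and Setdb1. Among the members, r was 0.892 for Rara with Rxra, 0.844 for Rara with Rarg, 0.149 for Rara with Rxrb, 0.395 for Aldh1a2 with Rdh10 and -0.822 for Aldh1a2 with Rxra.

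The wider pathway was read from 48 genes listed by role, of which 44 had a row in the table and 31, the 7 members among them, had enough counts to be tested. Of the 24 others tested, 16 fell between stages 1 and 12, 4 rose and 4 were not called, with a median log2 fold change of -2.23, against -0.06 over all 10796 genes. The 20 called of 24 stand beside 76.5% of all genes called (39.4% lower, 37.1% higher). Under ERCC scaling 13 of the 24 were called lower and 7 higher, with 19.5% and 63.5% of all genes. The other receptor genes, Rarb and Rxrg, had too few counts: Rarb had at most 5 UMIs in any stage and Rxrg at most 4. Levels below are means over the 3 mice.

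Of the binding and transport genes, Rbp4, a carrier of retinol, was at 18.6 CPM at stage 1 and 123 CPM at stage 4, and had fallen to 1.08 CPM at stage 12 (log2 fold change -3.71 against stage 1, SE 0.43, edgeR adjusted p = 4.55e-10). Lrat, which stores retinol as an ester, rose from 5.86 to 33.4 CPM (2.66, SE 0.43). Crabp2, a relative of Crabp1, was not tested, with at most 8 UMIs in a stage. Of the other synthesis genes, Rdh11 rose (3.78, from 7.83 to 93.9 CPM) and Rdh14 rose (1.51), while Adh5 (-6.00, from 160 to 1.92 CPM) and Rdh13 (-5.25) fell. The relatives of Aldh1a2 were too low to test, with Aldh1a1 at up to 11 UMIs and Aldh1a3 at up to 7 UMIs in a stage. Cyp26b1, which breaks retinoic acid down, was at 21.6 CPM at stage 2 and 3.91 CPM at stage 1. Its fall to 1.03 CPM at stage 12 was called at -2.10 (SE 0.93, adjusted p = 0.0397), on 6 UMIs at stage 12, and was not called under ERCC scaling (-0.76, adjusted p = 0.451).

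Of the 9 receptor coregulators tested, 4 fell, 1 rose and 4 were not called, so fewer than the 76.5% of all genes were called. Under ERCC scaling 3 were called lower and 4 higher, and Ncoa3 went from -1.32 to 0.08, not called. Among those that fell were the coactivators Crebbp (-2.36), Ep300 (-1.96) and Ncoa3 (-1.32). Ncoa1 rose (1.03) but was far higher in between, at 155 CPM at stage 4 against 11.7 CPM at stage 1 and 19.6 CPM at stage 12. Ncor1 was not called (-0.43, adjusted p = 0.0542). All 7 tested genes known to respond to retinoic acid in male germ cells fell, from -1.61 for Rec8 to -7.19 for Ccnd2, beside 39.4% of all genes. Under ERCC scaling 6 of the 7 were called lower, and Rec8 was not (-0.24). Ccnd2 and Sall4 were among the 10 leading genes of stage 1, Rec8 of stage 4 and Stra8 of stage 5. Stra8, Rec8 and Ccnd2 were also on the marker lists that named the stages. Whether the falls to stage 12 reflect a response to retinoic acid was not tested. Rec8, a subunit of meiotic cohesin, was at 4.40 CPM at stage 1 and 58.7 CPM at stage 4, so its level was not a steady decline. Stra8, the gene through which retinoic acid starts meiosis, had 371, 2093 and 358 CPM in stages 4, 5 and 6. Its peak was at stage 5, the stage of the called rises of Rdh10 and Aldh1a2.

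**Figure D5:**
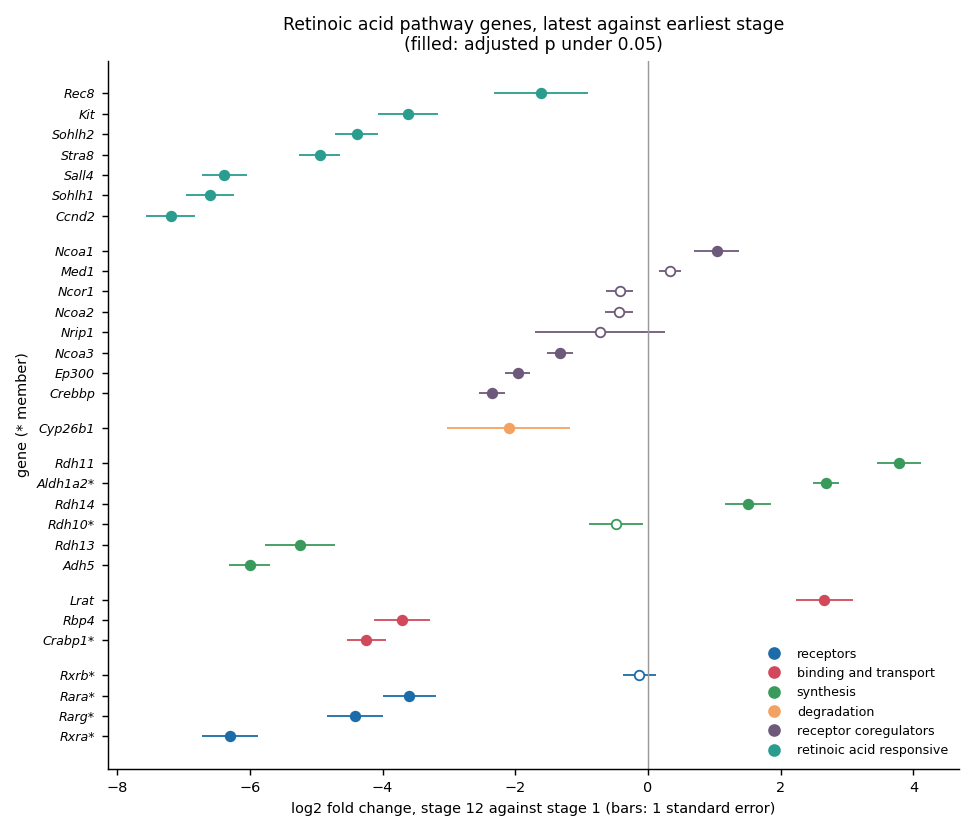
Log2 fold change of stage 12 against stage 1 (x axis, log2 scale) for 29 of the 31 genes tested, grouped by role, with 1 standard error as bars; asterisks mark the 7 members and filled points an adjusted p under 0.05. Only Rdh11, Aldh1a2, Rdh14, Lrat and Ncoa1 are called higher, and 18 of the genes drawn are called lower.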

How the data were processed

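For every gene in each well the authors deposited counts of UMIs, counts of reads, and transcripts, which are estimated counts (UMIs corrected for collisions). Per the submitters' processing notes, BWA 0.7.10 and the mm10 build were used, and the counting tool is not given in the sources used here. UMI counts were the main values. The columns of mouse 1 in the estimated counts stood in another order and were matched by expression profile (lowest r 0.973). Estimated counts were rounded to whole numbers first. UMIs were totalled over autosomes, X and Y, and wells with 1000 or more entered. Over all wells mice 1, 2 and 3 gave 16682671, 5866174 and 18032562 UMIs.

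Stages came from 1500 variable genes of odd-numbered autosomes, without any retinoic acid gene, aligned across mice with Seurat 5.3.0 and clustered with scanpy 1.11.5 (Leiden resolution 1.0, 15 principal components). They were ordered by diffusion pseudotime from the cluster highest in markers of undifferentiated spermatogonia, and named "-like" only from marker lists. Of the kept cells, 83.7% fell in a stage. Clusters of low depth (3) and a cluster led by Prm2 and Prm1 were no stage. Each well received 1 sorted cell, and no doublet caller was run. UMIs were summed per mouse and stage (36 sums) and tested with edgeR 4.0.16 (quasi-likelihood, TMM, the mouse as a block since each mouse gives cells of every stage, Benjamini-Hochberg over 10796 genes). The SE of a log2 fold change is the change divided by the square root of its F value. Counts were also simulated for the comparison of the latest with the earliest stage (9486 genes). On these the edgeR test recovered 100% of 97 genes changed by 3 on the log2 scale and 58.9% of 90 changed by 1.5. Of those calls, 5.66% were false. Whether these rates hold for the measured counts, where 76.5% of genes were called in that comparison, was not tested. DESeq2 1.42.0 was an alternative. Python 3.11.15, pandas 2.3.3 and R 4.3.3 were used.

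The members and the gene lists were chosen with earlier results of these data known. Genes named are the 7 members, list genes by size of change, and the 5 genes most like each member. Some of these genes are not reported here. Intervals and limits for a count of 0 (3 counts) cover counting error only.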

Additional observations from a re-analysis of the deposited data

How the results depend on the processing

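Alternatives were DESeq2, median-ratio size factors, ERCC scaling, no filter, leaving out each mouse, no mouse block, read counts, estimated counts, other stagings, and stricter limits on wells and sums. After seeing the data, leaving out cells with somatic or spermatid markers and either library of mouse 3 were added. In all 18, the members called across stages were 7, those called between the latest and earliest stage 5 to 7, and the pathway genes so called 23 to 31, against 25. Aldh1a2, Crabp1, Rara, Rarg and Rxra kept their direction and call in 18 of 18. Member steps called were 15, with 23 under ERCC scaling, between 6 (without mouse 3) and 12 when leaving out a mouse, and 7 with no block for the pairing by mouse. Steps were not recounted in other stagings, whose stages differ. Rdh10, not called in the main fit, reversed with a call under ERCC scaling (0.97). With read counts (0.051) and no alignment (0.51) its sign reversed without a call. Rxrb, also not called in the main fit, reversed with a call under ERCC scaling (1.31). Read counts (0.25), no alignment (0.39) and resolution 0.6 (0.33) reversed its sign without a call. With stages from even-numbered autosomes Rxrb was called lower (-0.93, edgeR adjusted p = 0.0445). ERCC scaling moved the median of all genes from -0.06 to 1.36. The causes of the other reversals were not tested, and without alignment 49.1% of kept cells fell in a stage. Where Rara or Rxra had 0 UMIs in a mouse, the limit ranged from 0.758 CPM (stage 11) to 20.6 CPM (stage 6).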

Other observations

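Cells outside the stages also held transcripts of these genes, given here as values pooled over mice with no comparison. In the low-depth cluster of 87 cells led by Lrrc17, Crabp1 was at 138 CPM (35 UMIs), Aldh1a2 at 106 CPM (27 UMIs) and Rara at 35.5 CPM (9 UMIs). In the low-depth cluster of 51 cells led by Plekhg3, Aldh1a2 was at 290 CPM (29 UMIs) and Rarg had 0 of 99884 UMIs, which allows up to 30.0 CPM. In that of 51 cells led by Vmn2r55, Aldh1a2 was at 106 CPM (12 UMIs). In the cluster of 47 cells led by Prm2, genes of elongating spermatids, Aldh1a2 was at 109 CPM (155 UMIs), Rxrb at 38.0 CPM (54 UMIs), Crabp1 at 33.1 CPM (47 UMIs), Rarg at 12.7 CPM (18 UMIs) and Rdh10 at 7.04 CPM (10 UMIs).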
